A study of Solanum lycopersicum and Arabidopsis thaliana and Cannabis sativa with 28 samples.

Results

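Tomato H3K9ac domains that each stretched over 2 or more H3K4me3 domains were examined in seedlings of the dwarf variety Micro-Tom. They were chosen by measured values. An H3K9ac domain was taken if it shared at least 1 base with 2 or more listed H3K4me3 domains, if its ratio of 2 h JA to ctrl H3K9ac reads was under 1.6, and if its midpoint lay in a 1 Mb bin that held the midpoints of 10 or more H3K4me3 domains. The rule returned 2337 of the 17455 listed H3K9ac domains (13.4%). Another 23 domains met the other criteria but had a ratio of at least 1.6, and 48 lay in bins with fewer H3K4me3 domains. The same bins and ratio limit held 8500 H3K9ac domains over a single H3K4me3 domain and 4005 without any, which serve here for comparison. With an FDR (false discovery rate of the domain caller) of at most 1e-10 required of both marks, 963 of the 2337 remained.

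H3K9ac and H3K4me3 were profiled by PHILO ChIP-seq, a low-input ChIP-seq protocol for many parallel samples, in 2-week-old Micro-Tom seedlings. The 4 groups were untreated H3K9ac (ctrl), H3K9ac after 2 h of gaseous jasmonic acid (JA), untreated H3K4me3, and untreated IgG as its control, with 3 libraries per group. The groups follow the sample titles. The treatment field in the sample labels reads none for every one of these libraries, and in the study's list of libraries the treatments of replicate 3 are exchanged between ctrl and 2 h JA. The replicates of each group had been merged before domains were called, so that every value below rests on 1 pooled library per group, no spread between replicates exists and no difference between groups could be tested. Intervals of read ratios (95%, Clopper-Pearson) cover counting error only. Intervals of medians (95%, binomial) and of shares (95%, Wilson) cover the spread over domains of the same pooled libraries, which are not independent replicates. All listed H3K9ac domains together held 9443107 reads after 2 h JA and 8987855 in ctrl. The list holds only domains that the caller found higher after 2 h JA than in ctrl with its own scaling. H3K9ac outside the list is therefore not counted here.

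H3K9ac is an acetylation of histone H3 that histone acetyltransferases place at promoters and the beginning of transcribed genes. H3K4me3 is a trimethylation of the same histone that marks the 5′ ends of active genes, so that a row of separate H3K4me3 domains usually marks a row of active promoters. In the JA pathway, JAZ repressors hold the transcription factor MYC2 inactive. When JA is perceived the repressors are degraded, and MYC2 recruits coactivators that include a histone acetyltransferase. Since tissue of mixed cell types was used, it cannot be told whether the H3K9ac and the H3K4me3 of a region lay in the same cells. No gene annotation of this tomato assembly was used here, and of the domains named below only that of SlJAZ2 is paired with a gene by the study.

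Most of these H3K9ac domains spanned few H3K4me3 domains. Exactly 2 were spanned by 1596 of them (68.3%), 3 by 511 and 4 by 143. A further 87 spanned 5 or more, up to 10 in 2 domains. The median size was 12399 bp (interval 11999-12599 bp), with quartiles of 8999 and 17199 bp and a range of 2799 to 57199 bp. Domains over a single H3K4me3 domain had a median size of 3799 bp, and those without one of 3199 bp. A longer domain meets more H3K4me3 domains by its length alone, so this difference in size follows from the rule. The median size rose from 10199 bp at 2 spanned domains to 16399 bp at 3, 21599 bp at 4 and 28799 bp at 5. Size per spanned H3K4me3 domain changed less, with medians of 5100 bp at 2, 5466 bp at 3, 5400 bp at 4 and 5760 bp at 5. At 6 to 10, with at most 17 domains each, the medians lay between 4900 bp at 10 and 6355 bp at 9. Of the 100 listed H3K9ac domains longer than 30 kb, 95 belonged to this set, 1 lay over a single H3K4me3 domain and 4 had a ratio of at least 1.6.

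**Figure D1:**
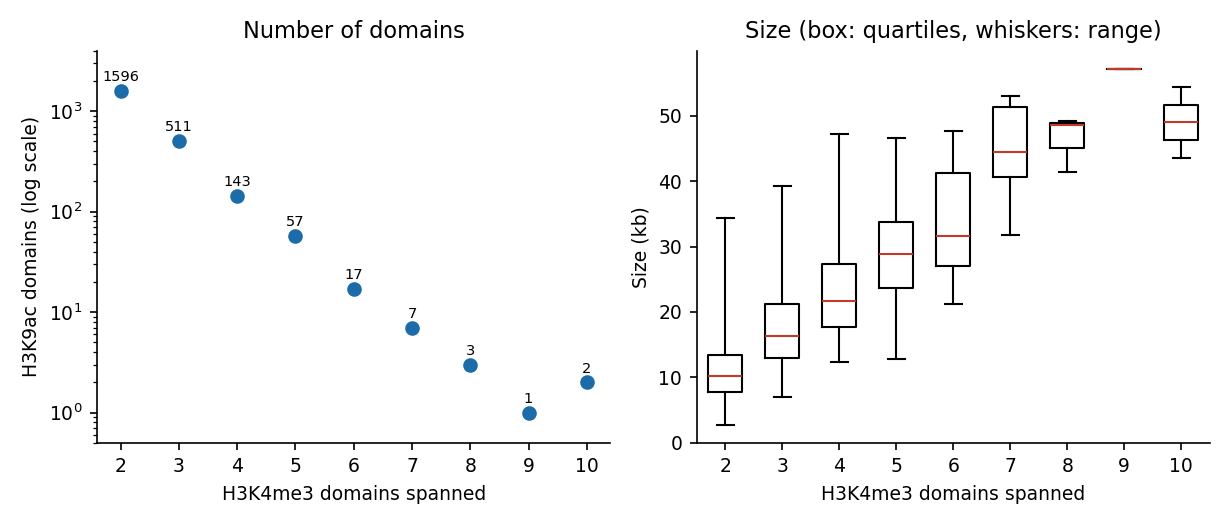
Number of H3K9ac domains (left, log scale) and their size in kb (right) by the number of H3K4me3 domains they span. Boxes give quartiles with the median in red and whiskers the full range. Counts fall from 1596 at 2 spanned domains to 2 at 10, while the median size rises from 10199 bp to 48999 bp.

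Although they made up 13.4% of the listed domains, these H3K9ac domains covered 32.9 Mb, or 33.5% of the listed H3K9ac length. They held 37.0% of the 2 h JA reads and 37.9% of the ctrl reads in listed domains. They met 5781 of the 18758 listed H3K4me3 domains (30.8%), of which 5 were touched by 2 of the H3K9ac domains. Of the 5786 contacts, 5417 (93.6%) had the whole H3K4me3 domain inside the H3K9ac domain, so that few rested on a grazing overlap. H3K4me3 domains lay under a median of 40.4% of the length (interval 39.6-41.1%). The gaps between neighboring H3K4me3 domains made up a median of 33.3% of the length. The stretches outside the first and the last H3K4me3 domain made up a median of 21.3%.

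The 2 domains that spanned 10 H3K4me3 domains differed in their ratio of 2 h JA to ctrl reads. On chromosome 1 (88472600-88526999 of the Micro-Tom assembly SLM_r2.0), a domain of 54399 bp had 6007 reads after 2 h JA and 5996 in ctrl, giving a ratio of 1.00 (interval 0.966-1.04). On chromosome 12 (4218600-4262199), a domain of 43599 bp had 5476 and 4174 reads, giving a ratio of 1.31 (interval 1.26-1.37). Counting error does not bridge these ratios, whereas replicate error is unknown. Their spanned H3K4me3 domains were unequal in strength. On chromosome 1, H3K4me3 reads were between 1.95 and 17.9 times the IgG reads. On chromosome 12 the multiples were between 1.14 and 13.6, with 4 of the 10 domains below 2. The weakest had 24 H3K4me3 and 21 IgG reads and the strongest 544 and 40.

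The longest of all, 57199 bp with 9 H3K4me3 domains, was found on chromosome 8 (65376200-65433399). Read counts were 6166 after JA and 6167 in ctrl, a ratio of 1.00 (interval 0.965-1.04). Its first H3K4me3 domain began 10200 bp after the start of H3K9ac, and another, with 110 H3K4me3 and 88 IgG reads, was barely above IgG. The third longest domain, on chromosome 3 (65783800-65836799), held 7 H3K4me3 domains under 50.2% of its 52999 bp. There 5596 reads after JA and 5727 in ctrl gave a ratio of 0.977 (interval 0.942-1.01). Its strongest H3K4me3 domain relative to IgG was also its shortest, 799 bp with 238 H3K4me3 and 13 IgG reads.

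**Figure D2:**
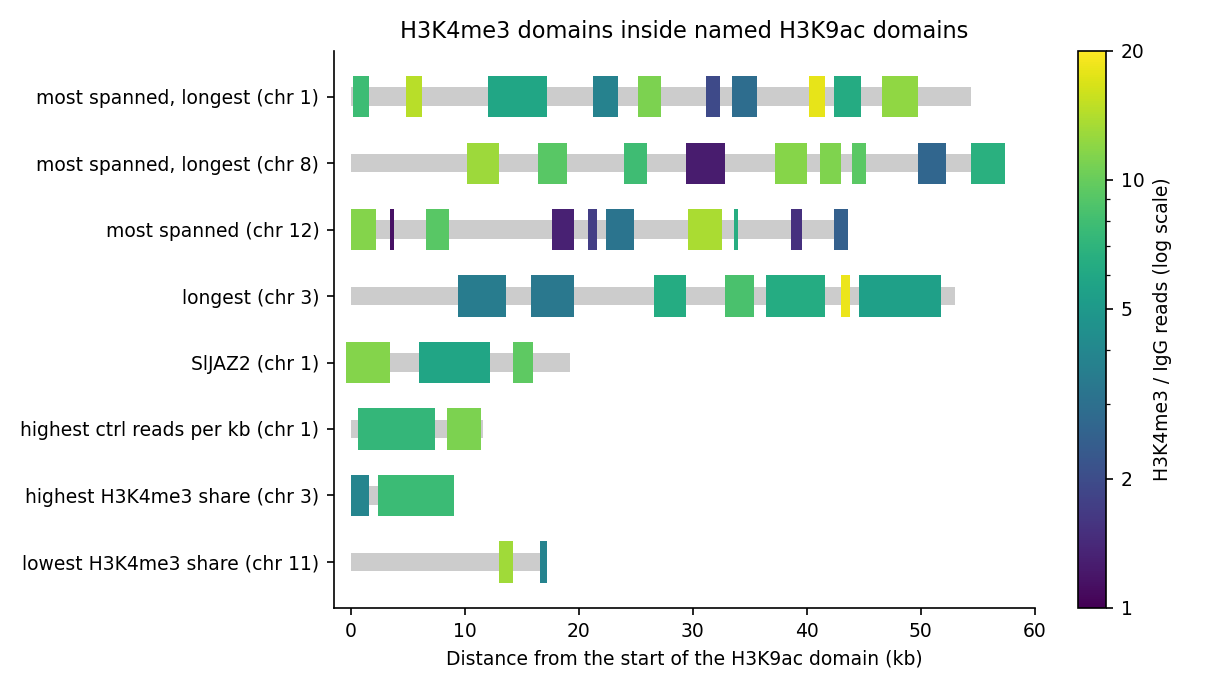
H3K4me3 domains (colored blocks) inside named H3K9ac domains (gray bars), drawn by distance in kb from the start of the H3K9ac domain. Color gives the ratio of merged H3K4me3 to merged IgG reads on a log scale. Single H3K9ac domains hold both strong and weak H3K4me3 domains, as in the chromosome 12 domain with ratios from 1.14 to 13.6.

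SlJAZ2, which encodes a JAZ repressor of the JA pathway, is paired by the study with a domain of this set on chromosome 1 (671000-690199). Reads numbered 3845 after JA and 2654 in ctrl, for a ratio of 1.45 (interval 1.38-1.52), close to the upper limit of the rule. Its ctrl level of 138 H3K9ac reads per kb was above the upper quartile of the set, 122 reads per kb. It spanned 3 H3K4me3 domains. The first began 400 bp before the H3K9ac domain and held 807 H3K4me3 and 70 IgG reads, a ratio of 11.5 (interval 9.02-14.9). The middle one was the longest with 6199 bp and held 744 and 128 reads, a ratio of 5.81 (interval 4.81-7.07). The third held 220 and 23 reads, a ratio of 9.57 (interval 6.21-15.4). Across a gap of 800 bp, the neighboring domain (637600-670199) also belonged to the set, with 3 H3K4me3 domains, 3354 and 2600 reads and a ratio of 1.29 (interval 1.23-1.36). The domain before that one (619200-628799) lay over a single H3K4me3 domain and had a ratio of 1.05 (interval 0.972-1.14). On the other side the next domain lay over a single H3K4me3 domain and had a ratio of 1.07 (interval 0.956-1.20). The one after it (699400-722199) also belonged to the set and had a ratio of 1.08 (interval 1.02-1.15). The SlJAZ2 domain and the adjoining domain of the set thus had ratios above those of the other 3 domains by more than counting error.

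The share of gaps between H3K4me3 domains that lay inside 1 listed H3K9ac domain fell with the length of the gap. Only an H3K9ac domain longer than the gap can bridge it, so a fall is built into this measure. Listed H3K9ac domains had a median size of 3999 bp, and 90% were at most 11799 bp long. In bins with 10 or more H3K4me3 domains there were 17050 gaps between neighboring H3K4me3 domains, and 3487 of them (20.5%) lay inside a single listed H3K9ac domain, whatever its ratio. Gaps of 800 bp, the shortest listed, were bridged in 253 of 338 cases (74.9%, interval 70.0-79.2%). The share was 61.9% (interval 59.4-64.4%) for gaps of 1 to 2 kb and 46.6% (interval 44.7-48.6%) for 2 to 4 kb. It was 15.9% (interval 14.3-17.6%) for 6 to 8 kb and 3.81% (interval 3.12-4.66%) for 10 to 15 kb. Beyond 20 kb, 3 of 3665 gaps were bridged. When only gaps were counted whose H3K4me3 domains both met a listed H3K9ac domain, the shares were higher but fell in the same order, from 86.9% at 800 bp to 5.30% at 10 to 15 kb. Within the set, the median gap was 2800 bp, with quartiles of 1400 and 4600 bp, and the longest was 21200 bp. Gaps that were not bridged had a median of 10600 bp. Such gaps can still hold H3K9ac that is not listed. The domain caller joins windows over short distances, and H3K9ac domains less than 800 bp apart are not found in the table, so that the calling can join H3K9ac across short distances. Its part in these shares was not tested.

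**Figure D3:**
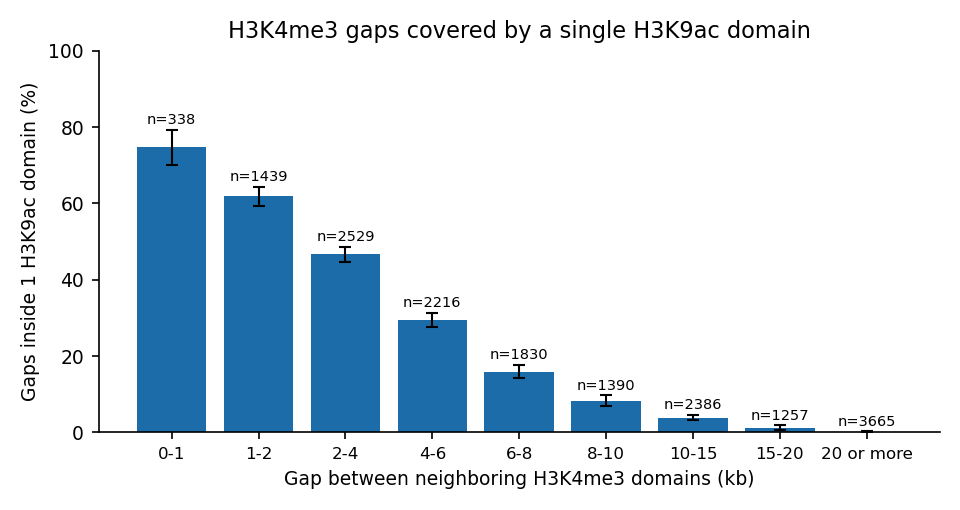
Share of gaps between neighboring H3K4me3 domains that lie inside 1 listed H3K9ac domain, by the length of the gap in kb, with 95% Wilson intervals and the number of gaps. The share falls from 74.9% at the shortest gaps to 3.81% at 10 to 15 kb.

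The borders of these H3K9ac domains lay mostly beyond the outermost H3K4me3 domains. Of 4674 ends, 3475 (74.3%) reached past the nearest spanned H3K4me3 domain. At 830 ends both marks stopped at the same position, and at 369 ends (7.89%) H3K4me3 went on past H3K9ac. The median distance was 800 bp, with quartiles of 0 and 2400 bp, and it was at most 4600 bp for 90% of the ends. In 1301 domains (55.7%) H3K9ac extended beyond H3K4me3 on both sides, and in 163 on neither. The longest such extension was 18600 bp.

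The share of length under H3K4me3 ranged from 9.41% to 89.2%. The 3 domains with the largest share spanned 2 H3K4me3 domains each. The first of them, on chromosome 3 (30118800-30126199), had H3K4me3 over all but a gap of 800 bp, with 1343 reads after JA against 1398 in ctrl. In the domain with the smallest share, on chromosome 11 (4052000-4068999), H3K9ac ran for 13000 bp before the first H3K4me3 domain of 1199 bp. The counts were 1130 after JA and 1172 in ctrl, or 66.5 and 68.9 reads per kb. The other 2 domains with the smallest shares, on chromosomes 10 and 2, had 59.3 and 53.0 ctrl reads per kb. Those with the largest shares had between 140 and 189. These are only the 3 domains at each end of the ranking by share. The 3 with the smallest shares were also longer, at 14999 to 24199 bp against 7399 to 8999 bp.

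The level of H3K9ac was measured as reads per kb of domain. The rule did not use this level itself, but its ratio limit is made of the same 2 read counts. The median in ctrl was 104 reads per kb (interval 102-105), with quartiles of 87.6 and 122, and after 2 h JA it was 106 reads per kb (interval 105-108). Without the ratio limit the ctrl median was 103.5 in place of 103.8 reads per kb. Over all listed domains the ctrl median was 88.6 reads per kb. Domains over a single H3K4me3 domain had a ctrl median of 109 reads per kb (interval 108-110) and a wider spread, with quartiles of 83.4 and 145. Domains without H3K4me3 had a median of 45.9 (interval 45.4-46.4). The level changed little with the number spanned, from a median of 103 reads per kb at 2 to 108 at 5. A domain over several H3K4me3 domains thus carried about the same reads per kb as one over a single domain and held more reads by its length, with a median of 1255 ctrl reads against 414.

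**Figure D4:**
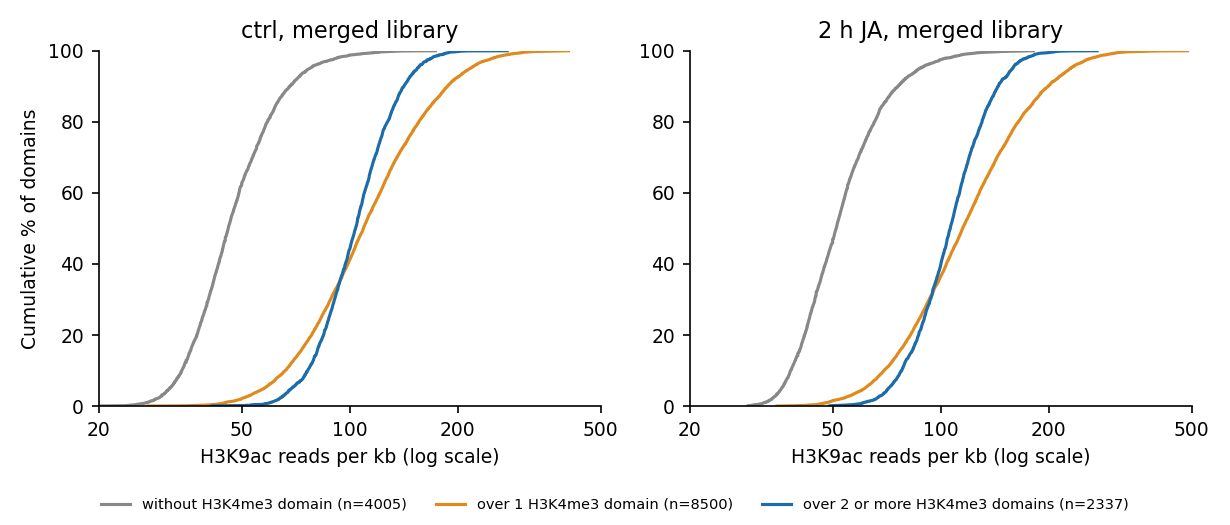
Cumulative distribution of H3K9ac reads per kb (log scale) in the merged ctrl library (left) and the merged 2 h JA library (right) for H3K9ac domains over 2 or more, 1 or no H3K4me3 domains. The ctrl medians are 104, 109 and 45.9 reads per kb, and domains over 2 or more spread less than those over 1.

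At a given size the order was different. Among domains of 5 to 10 kb, the ctrl median was 111 reads per kb (interval 109-113) in 749 domains over several H3K4me3 domains, 88.3 (interval 87.3-89.6) in 2293 over a single one and 45.8 (interval 45.0-46.5) in 741 without. At 10 to 15 kb the medians were 101 (interval 98.5-103), 74.5 (interval 72.9-76.6) and 48.6 (interval 46.4-50.5). H3K4me3 covered more of the domains that held several, with medians of 47.1% against 30.2% at 5 to 10 kb. Among domains of 5 to 15 kb with 40 to 50% of their length under H3K4me3, the ctrl medians were 107 (interval 105-109, n = 364) and 99.4 (interval 95.3-102, n = 317). At 30 to 40% they were 100.04 (interval 97.7-103) and 88.0 (interval 86.0-91.2), which was the widest gap of the 6 classes of share between 10 and 70%. At 60 to 70% they were 124 (interval 119-131) and 113 (interval 106-117). The intervals were apart in these 3 classes. They overlapped at 10 to 20% with medians of 75.3 and 71.4, at 20 to 30% with 87.5 and 83.5, and at 50 to 60% with 119 and 110. The median was thus higher over several H3K4me3 domains in each class. The domains over several were also longer, for example with medians of 9999 and 6599 bp at 40 to 50%. Across the set, ctrl reads per kb correlated with the share of length under H3K4me3 (Spearman's rho = 0.60, n = 2337 domains) and with H3K4me3 reads per kb of H3K9ac domain (rho = 0.72). These points come from the same pooled libraries and can share effects of mappability and base composition.

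The highest ctrl level was found on chromosome 1 (91893000-91904599), where 11599 bp contained 3183 ctrl reads and 3163 after JA, or 274 and 273 reads per kb. H3K4me3 lay under 84.5% of it, with 1019 and 751 reads in its 2 H3K4me3 domains against 141 and 68 IgG reads. The next 2, on chromosomes 4 and 9, had 213 and 208 ctrl reads per kb. At the lowest, on chromosome 9 (1919800-1930799), 10999 bp contained 455 ctrl reads and 609 after JA. This gave 41.4 and 55.4 reads per kb and a ratio of 1.34 (interval 1.18-1.51). A domain on chromosome 3 (65643400-65649999) with 304 ctrl reads was also among the lowest. Its H3K4me3 domains were close to IgG, with 68 and 42 H3K4me3 against 70 and 24 IgG reads, so that its place in the set rests on weak H3K4me3 domains.

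The spanned H3K4me3 domains were compared with the rest by their reads, which the rule did not use. The median ratio of H3K4me3 to IgG reads was 7.23 (interval 7.08-7.40) over the 5781 spanned domains and 7.54 over all listed H3K4me3 domains. These ratios are of read counts without scaling of the libraries, and the median of the spanned domains was 4.55 when scaled by uniquely aligned totals and 12.1 with the deposited fold change. H3K4me3 domains under an H3K9ac domain that met no other had a median ratio of 8.56 (interval 8.44-8.68), and those that met no listed H3K9ac domain of 4.39 (interval 4.16-4.62). The latter can still carry H3K9ac, since only H3K9ac domains called higher after JA are listed. At least 8 times the IgG reads were found in 2527 spanned domains (43.7%, interval 42.4-45.0%), against 46.1% of all listed H3K4me3 domains. The share was 55.4% (interval 54.4-56.5%) under a single-H3K4me3 domain and 25.1% (interval 23.7-26.7%) without listed H3K9ac. H3K4me3 domains without listed H3K9ac come from all bins. The other 2 kinds come only from H3K9ac domains under the ratio limit in bins with 10 or more H3K4me3 domains. All H3K4me3 domains of such bins had a median ratio of 7.59. Spanned H3K4me3 domains were somewhat longer, with a median of 1999 bp against 1799 bp over all. IgG reads per kb were nearly equal, with medians of 19.2 in the spanned domains, 19.0 under single-H3K4me3 domains and 19.2 over all, while H3K4me3 reads per kb had medians of 138, 162 and 144. By H3K9ac size, the median ratios over several and over a single H3K4me3 domain were 8.10 and 8.55 at 3 to 5 kb, 7.50 and 7.59 at 5 to 10 kb, and 7.09 and 7.08 at 10 to 15 kb. They were 7.03 and 7.38 at 15 to 20 kb and 7.31 and 7.78 at 20 to 30 kb, the last with 22 H3K9ac domains over a single one. The medians were thus nearly equal at 5 to 15 kb and lower for the spanned domains in the other 3 ranges. No intervals were computed for these medians, so a difference that depends on size is not shown.

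**Figure D5:**
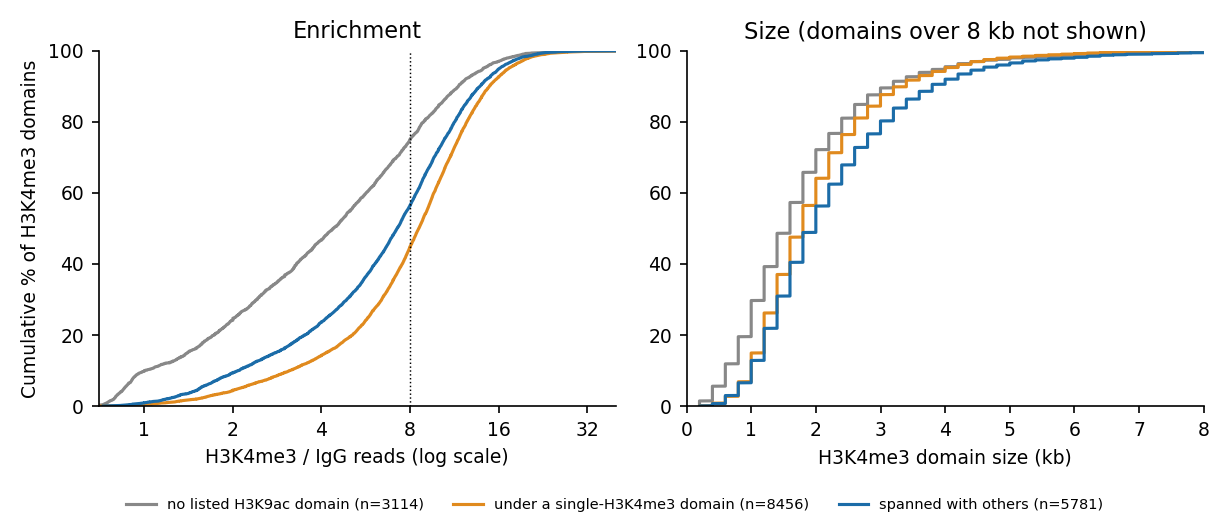
Cumulative distribution of the ratio of H3K4me3 to IgG reads (left, log scale, dotted line at 8) and of size in kb (right) for H3K4me3 domains that are spanned together with others, lie under a single-H3K4me3 domain or meet no listed H3K9ac domain. The median ratios are 7.23, 8.56 and 4.39. The last kind can still carry H3K9ac, since only H3K9ac domains called higher after JA are listed.

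H3K4me3 domains that shared an H3K9ac domain often differed in strength. In H3K9ac domains with 2 of them, the stronger had a median of 1.86 times the H3K4me3 to IgG ratio of the weaker, with quartiles of 1.33 and 3.11. The stronger was under 1.5 times the weaker in 559 of the 1596 (35.0%) and at least 4 times in 275 (17.2%). Over all 2337, 356 (15.2%) had every spanned H3K4me3 domain at 8 or more times IgG, 624 (26.7%) had none, and 1357 (58.1%) had both kinds. Taken singly, 43.7% of the spanned and 46.1% of all listed H3K4me3 domains were at 8 or more times IgG. The folds and the split were not computed for H3K4me3 domains grouped at random. They therefore do not show whether domains that share H3K9ac differ more or less than unrelated ones. Between the 3449 pairs of neighbors inside these domains, the ratios showed nearly no correlation (Spearman's rho = 0.0078, pairs that share libraries and in part H3K4me3 domains). In the 741 H3K9ac domains with 3 or more, inner H3K4me3 domains had a median ratio of 6.54 (interval 6.22-6.96, n = 1112) and the first and last of 7.83 (interval 7.55-8.11, n = 1482). The median size was 1999 bp in both. The values were pooled over H3K9ac domains, and those over many H3K4me3 domains gave more inner but not more outer ones. Inner and outer ones of the same H3K9ac domain were not compared.

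The response to JA is part of the rule and is given as a description. The ratio of 2 h JA to ctrl reads ranged from 0.881 to 1.59, with a median of 1.02 (interval 1.01-1.02) and quartiles of 0.969 and 1.07. The median over all listed domains was 1.05. More reads after JA than in ctrl were counted in 1358 domains of the set (58.1%), against 74.6% of all listed H3K9ac domains. A ratio of at least 1.25 was reached by 72 (3.08%), against 9.34% of all. Both shares of all listed domains include the 322 with a ratio of at least 1.6, which the rule removed. Under the limit in the same bins, the 2 shares were 71.6% and 4.32% over a single H3K4me3 domain. They were 84.4% and 16.3% in H3K9ac domains without H3K4me3. Summed over the set, 3493030 reads after JA and 3404774 in ctrl gave a ratio of 1.03. Whether a ratio near 1 is an increase depends on the scaling of the libraries. The median was 1.09 with uniquely aligned totals and 1.19 with the deposited fold change, but 0.967 relative to all listed domains. The table lists only domains that the caller found higher after JA with its own scaling, and large domains with many reads are listed at smaller changes than small ones. Among domains of 3 to 5 kb the median ratio was 1.03 (interval 1.01-1.05) over several, 1.04 (interval 1.038-1.046) over a single and 1.06 (interval 1.056-1.068) without H3K4me3 domains. At 5 to 10 kb the medians were 1.018 (interval 1.008-1.0247), 1.024 (interval 1.021-1.027) and 1.032 (interval 1.025-1.039). In both ranges the intervals of the first and the last kind did not overlap. At 10 to 15 kb the medians were 1.02, 1.01 and 1.01, with overlapping intervals. The part that the exchanged treatments of replicate 3 in the list of libraries may have in these ratios was not tested.

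On both sides of the ratio limit the values ran on without a step. The closest domain inside (chromosome 1, 74099000-74106399) had 993 JA and 625 ctrl reads, hence a ratio of 1.59. The next 2 inside, on chromosomes 3 and 9, held 1023 and 644 reads and 2798 and 1786 reads. The closest outside (chromosome 1, 15393600-15399999) had 992 and 620 reads and a ratio of 1.6. The following 2 outside, on chromosomes 6 and 12, had ratios of 1.604 and 1.61. The 3 lowest ratios belonged to domains longer than the median of the set. The lowest, 0.881 (interval 0.846-0.918), came from 4352 JA and 4940 ctrl reads over 33399 bp of chromosome 3 (65305000-65338399). Next was a region of 47599 bp on chromosome 1 (552200-599799), where 4279 and 4815 reads gave 0.889 (interval 0.853-0.926). It lay at the same end of chromosome 1 as the SlJAZ2 domain, where the ratio was 1.45.

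The 72 domains with a ratio of at least 1.25 lay on 11 of the 12 chromosomes. They had fewer ctrl reads, with a median of 83.7 reads per kb (interval 77.2-88.9) against 104 (interval 103-105) in the other 2265, while their level after JA was 114 (interval 109-122) against 106 (interval 105-107). The ratio has the ctrl reads in its denominator, which by itself favors domains with few of them. Their 171 contacts with H3K4me3 domains had a median H3K4me3 to IgG ratio of 5.95 (interval 5.54-6.76), against 7.27 (interval 7.11-7.43) in the others. H3K4me3 was measured in separate libraries from untreated seedlings. For 23 of the 72 (31.9%, interval 22.3-43.4%) the next listed H3K9ac domain on at least 1 side also had a ratio of at least 1.25. This was so for 302 of the other 2265 (13.3%, interval 12-14.8%). Of all listed H3K9ac domains, 9.34% had a ratio of at least 1.25. How many of all listed domains had such a neighbor on at least 1 side was not computed. The study's own list of the 250 largest JA-induced tomato domains was drawn from these libraries. Of these, 97 belonged to the set, with ratios from 1.18 to 1.59, while the set made up 13.4% of all listed domains. A further 79 lay over a single H3K4me3 domain, 30 were without one and 38 had a ratio of at least 1.6. The list was made by size among domains that the study took as JA-induced. Its domains in the set had a median ratio of 1.27, against 1.02 for the whole set. The rule favors long domains, so an overlap follows in part from length. The 13.4% counts listed domains of any size and ratio and is no matched background.

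The set was spread unevenly over the chromosomes. Relative to all H3K9ac domains in bins with 10 or more H3K4me3 domains, its share was lowest on chromosome 11 with 87 of 890 (9.78%, interval 7.99-11.9%). It was highest on chromosome 6 with 255 of 1288 (19.8%, interval 17.7-22.1%), followed by chromosomes 1 and 3 with 18.9% and 18.8%. Members on chromosome 11 were also the shortest, with a median of 9599 bp, and those on chromosome 3 the longest with 13499 bp. Levels of H3K9ac differed less, with ctrl medians between 96.9 reads per kb on chromosome 9 and 107 on chromosome 3. The bins of the set held a median of 81 H3K4me3 domains, against 68 for H3K9ac domains over a single H3K4me3 domain and 52 for those without. All 3 values are bounded by the rule.

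Other H3K9ac domains lay close by. The median distance from a domain of the set to the next listed H3K9ac domain was 4200 bp, and 33.5% of these distances were at most 2 kb. The median measured the same way was 7000 bp from domains over a single H3K4me3 domain and 6800 bp from those without, all in bins with 10 or more H3K4me3 domains. The bins of the set were also the densest of the 3 kinds, as given above, and the part of this in the distances was not tested. The neighbor was itself over several H3K4me3 domains in 22.1% of cases, over a single one in 54.0% and without H3K4me3 in 22.5%. In 58 cases (1.24%) it had a ratio of at least 1.6. For comparison, bins with 10 or more H3K4me3 domains held 15121 H3K9ac domains, of which 2337 (15.5%) belonged to the set. Another 8500 lay over a single H3K4me3 domain and 4005 were without any. Of all listed domains, 1.84% had a ratio of at least 1.6. Only the share of neighbors over several H3K4me3 domains was thus above its background. This background covers all bins with 10 or more H3K4me3 domains, whereas the set lay in denser ones. The part of bin density in this share was not tested either. Of the 1822 runs of domains of the set with no other listed H3K9ac domain in between, 1445 were single domains, 285 were pairs and 92 held 3 or more. The longest run held 7 domains on chromosome 3 (61990600-62154199), which met 18 H3K4me3 domains over 164 kb.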

How the data were processed

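The deposited tables hold, for each domain, whole-number read counts in 2 merged libraries (H3K4me3 and IgG, or H3K9ac after 2 h JA and ctrl). Per the methods of the study, the authors used Bowtie2 2.4.1 for alignment to the Micro-Tom assembly SLM_r2.0, merged the 3 replicates of a group and called domains with epic2. The processing notes name SICER with the version 0.0.52. The window, gap, duplicate and mapping quality settings are not given in the sources used here. The paper describes MNase and the labels sonication for fragmentation. The tables also hold p-values, a false discovery rate (FDR, a p-value adjusted by the caller) and a log2 fold change per domain, deposited by the authors. The FDR and log2 columns were used only in alternatives. Every listed domain has an FDR of at most 0.05.

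From the counts, ratios without scaling and reads per kb were computed. Size is end minus start, and coordinates are as deposited. An H3K4me3 domain that met H3K9ac domains of 2 kinds was counted with those over several. At least 249 ctrl and 297 JA reads lay in each domain of the set. The members and all comparisons were chosen with earlier results of these data known. The domains to name were set by rule: the 3 with most H3K4me3 domains, the 3 longest, the 3 highest and 3 lowest in ctrl level and in share under H3K4me3, the 3 lowest in ratio, the 3 on either side of the ratio limit, and that of SlJAZ2. The run of 7 and the neighbors of SlJAZ2 were named after their values were seen. Since each group is 1 pooled library, no test was run. The overlap and interval functions were tested on simulated data. Alternatives for overlap, FDR, joining, bins, ratio limit, number spanned and scaling were computed. Hemp and Arabidopsis libraries were not analysed here, and no genome of this assembly was used, so no sequence is shown. Computation was in Python 3.11.15 with SciPy 1.17.1, NumPy 2.4.6 and pandas 2.3.3, and plots were drawn in matplotlib 3.10.9.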

Additional observations from a re-analysis of the deposited data

How the results depend on the processing

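No paired analysis was possible because the 3 replicates of each group were merged before deposit, and for the same reason no replicate could be left out. Of 59 alternative values, 44 lay within the interval of the reported median or within 1.5 times the reported number. With an FDR of at most 1e-10 in both tables, 963 domains remained, all of them also in the reported set, with a median size of 15199 bp, a ratio of 2 h JA to ctrl reads of 1.07, 38.6% of the length under H3K4me3 and an H3K4me3 to IgG ratio of 7.84. With 3 or more H3K4me3 domains required, 741 domains had a median size of 18399 bp, 106 ctrl reads per kb, 39.2% under H3K4me3 and 3 spanned domains, as the stricter rule implies. Scaling by uniquely aligned totals gave 1.09 for the ratio of 2 h JA to ctrl reads and 4.55 for that of H3K4me3 to IgG, and the deposited fold changes gave 1.19 and 12.1. Scaling by the sum over all listed H3K9ac domains turned the direction, with 0.967. The other alternatives for overlap, bins, joining of H3K4me3 domains and control reads left between 2245 and 2378 domains. H3K4me3 domains with few IgG reads have wide intervals.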
